A study of Mus musculus with 3 samples.

Results

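Gm2663, Akr1c18, Lgals7, Ccdc184, Nrgn, Penk, Sostdc1 and Nrn1 are 8 genes of the 30406 gene identifiers shared by 3 droplet libraries of mouse thymic invariant natural killer T (iNKT) cells, and all 8 were found by symbol in every library. They were chosen by the rise of their transcript counts from BMT mice with BM only to BMT mice with BM + Spl, so their ratios between these libraries are a description and were not tested. The C57BL/6 library came from untransplanted C57BL/6 mice, aged 7 weeks in the labels, although the figure legends of the study give another age. The other libraries came from F1 (C57BL/6 x BALB/c) recipients, 16 weeks old in the labels, 9 weeks after lethal irradiation and transfer of T cell-depleted C57BL/6 bone marrow. The marrow was given alone (BM only) or with C57BL/6 splenic cells, which brings on GvHD (BM + Spl). By the age at irradiation in the methods of the study, the recipients were older than in the labels. In every group thymocytes were depleted of CD8+ cells, sorted for TCRβ and CD1d tetramer binding without CD24 or NK1.1, and captured as 1 library, so no value has a replicate check and no test was run. Cells of donor and remaining host origin, and of different mice, cannot be told apart in these counts.

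Conventional T cells carry highly varied T cell receptors, whereas iNKT cells carry a nearly fixed alpha chain that binds lipids on CD1d, paired with a limited set of V beta segments. They develop in the thymus under the transcription factor PLZF, encoded by Zbtb16, and mature into NKT1, NKT2 and NKT17 subsets. In GvHD, donor T cells attack tissues of the host, the thymus among them.

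The libraries held 4434 (C57BL/6), 5970 (BM only) and 5557 (BM + Spl) cells that passed the filter, which asked for more than 200 but fewer than 6000 detected genes and for mitochondrial transcripts below 10%. A UMI is the tag that marks a single captured transcript. Median depth was 12087, 4740 and 6495 UMIs per cell, and levels are given as CPM, the UMIs of a gene in 1000000 UMIs of the library or gate. BM only and BM + Spl shared 43 cell barcodes, 2 of them with a UMI of any of the 8 genes in both, and neither shared a barcode with C57BL/6. The C57BL/6 library was deposited by another version of Cell Ranger. A V beta segment could be assigned in 19.3% of its cells against 77.3% (BM only) and 76.6% (BM + Spl). Its values thus stand beside the others without a comparison of V beta segments. Ranges in parentheses are 95% intervals and, like the limits for a count of 0, cover counting error only. Those of CPM and of ratios take UMIs of the same cell as independent.

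Each cell was placed in the first gate it met, in a fixed order that used none of the 8 genes. The gates were B cells, plasmacytoid dendritic cells, macrophages and dendritic cells, Foxp3+ (any UMI of this regulatory T cell factor), NKT17 markers, CD8, cycling, NKT1 markers (at least 2 of Tbx21, Cxcr3, Nkg7, Xcl1, Klrd1 and Gzma), Zbtb16+ and other T cells. The sort label did not hold for every cell. An iNKT V beta segment (Trbv1, Trbv12-2/Trbv13-2, Trbv13-1, Trbv13-3 or Trbv29) was carried by 94.4% of Zbtb16+ cells with an assigned segment in BM only and by 94.7% in BM + Spl, but by 29.4% and 28.8% of Foxp3+ cells. In the NKT1 marker gate this share was 92.6% (91.5 to 93.7) in BM only and 47.1% (43.3 to 50.8) in BM + Spl. The same gate held Lag3, an inhibitory receptor, at 8.82 and 252 CPM and Cd4 at 36.8 and 217 CPM. The gate is therefore named by its markers and is not read as NKT1 cells. It held 2686 BM only cells and 842 BM + Spl cells, and Foxp3+ cells numbered 635 and 698 against 3 in C57BL/6.

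Of the 8 genes, 5 had an upstream sequence in the RefSeq table of build GRCm38.p6, and those of Gm2663 and Akr1c18 are shown because these genes had the highest ratios and were carried by different cells. Gm2663 lies on chromosome 6 at chr6:40995830-40999479 on the minus strand (GRCm38, GENCODE vM21). Its place is between the V beta segments Trbv1 and Trbv2, 104 kb and 47.9 kb away, inside the T cell receptor beta locus. Akr1c18 lies at chr13:4132615-4150654, also on the minus strand. The windows below are chr6:40999480-40999729 and chr13:4150655-4150896, both written 5′ to 3′ on the minus strand and ending before the annotated gene.
Gm2663: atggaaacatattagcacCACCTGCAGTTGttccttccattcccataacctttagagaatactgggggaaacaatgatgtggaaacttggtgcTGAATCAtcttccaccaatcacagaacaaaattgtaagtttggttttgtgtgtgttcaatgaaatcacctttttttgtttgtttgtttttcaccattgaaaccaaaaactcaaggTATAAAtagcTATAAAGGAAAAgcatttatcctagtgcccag
Akr1c18: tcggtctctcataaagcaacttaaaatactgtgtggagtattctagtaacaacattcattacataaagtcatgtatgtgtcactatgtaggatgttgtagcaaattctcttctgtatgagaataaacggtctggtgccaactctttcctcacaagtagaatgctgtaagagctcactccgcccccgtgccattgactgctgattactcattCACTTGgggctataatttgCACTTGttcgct
Capitals mark matches, on either strand, to AP-1 (TGANTCA), the NFAT core (GGAAAA), the E-box (CANNTG), NBRE (AAAGGTCA), EGR (GTGGGCG), CRE (TGACGTCA) and TATAAA. The Gm2663 window held 1 AP-1 match, 1 NFAT core match, 2 TATAAA matches and 2 E-boxes, and the second TATAAA adjoins the NFAT core. These motifs were present in 6.75%, 20.4%, 12.4% and 66.2% of 32851 windows of 250 bases upstream of annotated starts. The Akr1c18 window held 2 E-boxes and no match to the other 6. A match is a run of letters and was not read as a site.

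Over all passing cells, each of the 8 genes was higher in BM + Spl than in BM only. All 8 were past 1.5-fold, beside 8.17% of 14295 genes with at least 20 UMIs, which the choice of the genes fixed. Gm2663 had 0, 13 and 697 UMIs in C57BL/6, BM only and BM + Spl, or 0, 0.374 and 16.2 CPM. Akr1c18 stood at 15.3, 2.04 and 24.8 CPM in the same order. Lgals7 stood at 7.501, 3.88 and 38.6 CPM. Penk had no UMI among 58794317 in C57BL/6, which allows up to 0.0510 CPM, and reached 160 and 634 CPM after BMT. Ccdc184 likewise had 0 UMIs in C57BL/6, with 2.24 and 15.6 CPM after BMT. All 3 genes without a UMI in C57BL/6, Gm2663, Penk and Ccdc184, were present in BM only. C57BL/6 differed from the BMT libraries in host strain, age, transplantation, Cell Ranger version and mix of gates. Its median mitochondrial share was 6.48%, against 0.687% in BM only and 0.511% in BM + Spl. These differences cannot be told apart in its levels and counts of 0. Sostdc1 stood at 0.782, 5.09 and 26.6 CPM and Nrn1 at 0.867, 18.9 and 29.4 CPM. Nrgn stood at 379, 407 and 626 CPM and was readily detected in every library. In these sums, fewer carriers and less RNA per carrier cannot be told apart, so the share of carriers is given with each gene. Cells were also thinned to 2700 UMIs each, and cells with fewer were dropped. Among the thinned cells, all 8 genes still had a higher share of carriers in BM + Spl, with intervals apart. The choice of the genes largely fixed this count as well, and no share over all genes stands beside it.

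**Figure D1:**
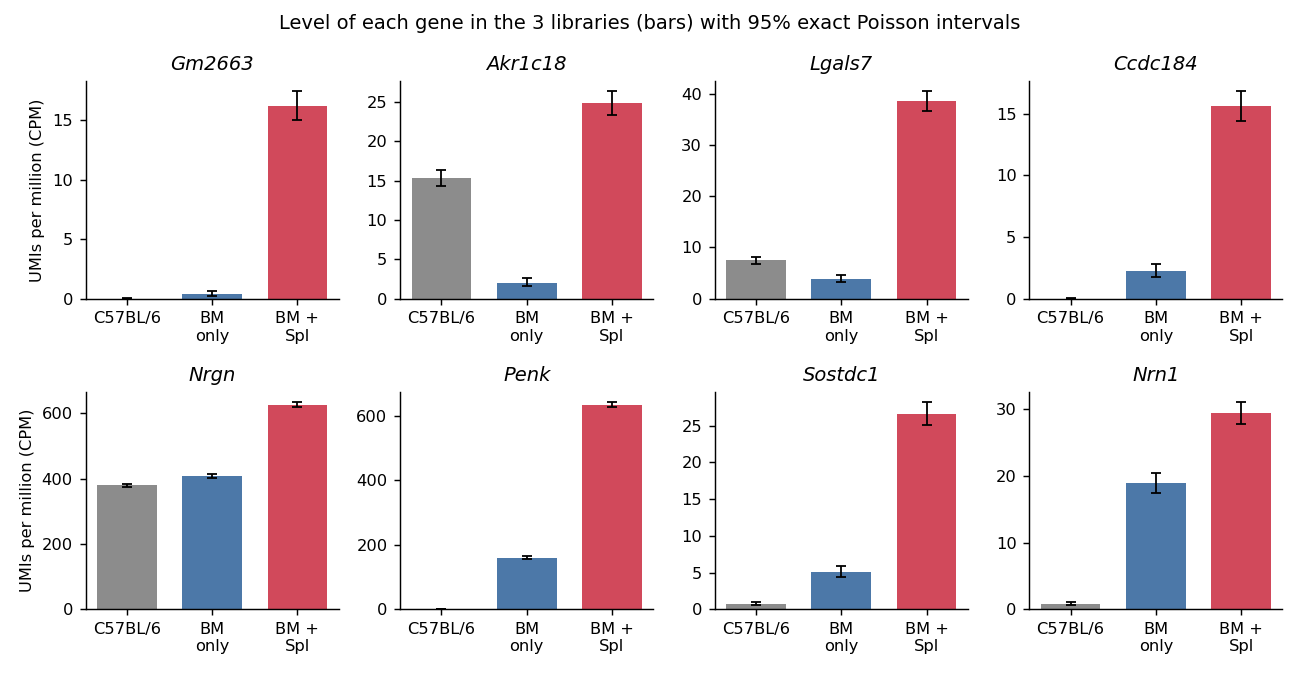
Level of each gene in CPM (linear axis from 0, a scale of its own per panel), with 1 bar for each of the 3 libraries and error bars for 95% exact Poisson intervals. BM + Spl is the highest library in all 8 panels, and C57BL/6 lies above BM only for Akr1c18 and Lgals7.

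On the log2 scale the ratio of BM + Spl to BM only was 5.44 for Gm2663, 3.60 for Akr1c18, 3.31 for Lgals7, 2.80 for Ccdc184, 2.39 for Sostdc1 and 1.99 for Penk. These 6 ranked between 7 and 27 among 9913 genes with at least 500 UMIs. Thinning moved the ratio to 3.25 for Sostdc1 and 3.96 for Lgals7, and holding the gate mix of BM only moved it to 3.43 for Ccdc184 and 2.98 for Akr1c18, all still above 0. The label of largest rise did not hold over all cells for Nrn1, with 0.64 and rank 320, or for Nrgn, with 0.62 and rank 338. Their larger ratios lay within single gates and are given with each gene.

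The genes fell into separate groups by the cells that carried them, a carrier being a cell with at least 1 UMI. In BM + Spl, Akr1c18 and Nrgn had most of their carriers in the Zbtb16+ and cycling gates, which held 1789 of all 5557 cells, and Gm2663, Penk, Sostdc1, Nrn1 and Ccdc184 had most of theirs in the Foxp3+, CD8, NKT1 marker and other T cell gates, which held 3151. The libraries differed in this. In C57BL/6, 10 of 12 Sostdc1 carriers and 37 of 42 Nrn1 carriers lay in the Zbtb16+ and cycling gates, beside 2345 of all 4434 cells. These carriers were few, 75% and 85.7% of them had a single UMI, and the gates held 25 of 46 Sostdc1 UMIs. In BM only 28 of 45 Sostdc1 carriers lay in the Foxp3+, CD8, NKT1 marker and other T cell gates, beside 4200 of all 5970 cells. In BM + Spl the Zbtb16+ and cycling gates together held 71 of 87 Akr1c18 carriers (81.6%) and 1128 of 1787 Nrgn carriers (63.1%). After thinning to 2700 UMIs these shares were 59.7% and 45.8%, the latter no longer most Nrgn carriers. Gates were assigned anew on the thinned counts, so cells also lost gate markers. The share of all thinned cells in these gates is not given, so a shift of Nrgn carriers cannot be read from this. Without thinning, the Zbtb16+ and cycling gates held 44 of 1011 Penk carriers (4.35%), 9 of 316 Ccdc184 carriers (2.85%) and 3 of 61 Gm2663 carriers (4.92%). These shares depend on the gate order, and with overlapping gates they were 11.9%, 8.54% and 6.56%. The share of all cells in the overlapping gates is not given. For Lgals7, with each cell in 1 gate, the count was 148 of 470 (31.5%), close to the share of all cells, but these gates held 15.2% of its UMIs. Among carriers with at least 2 Lgals7 UMIs the share was 12.4%, and after thinning it was 13.3%. The gates that should lack these genes gave a low background. Among 384 BM + Spl cells of the B cell, plasmacytoid dendritic and macrophage gates without a Cd3 UMI, 3 had a Penk UMI (0.781%), 8 had a Nrgn UMI (2.08%), 1 had a Ccdc184 UMI and none had a UMI of the other 5, which allows a share of up to 0.781%. These cells had a median of 6657 UMIs, close to the 6495 of the library. In the 130 cells of those gates that also had a Cd3 UMI, at a median of 11162 UMIs, Penk was found in 48 (36.9%).

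**Figure D2:**
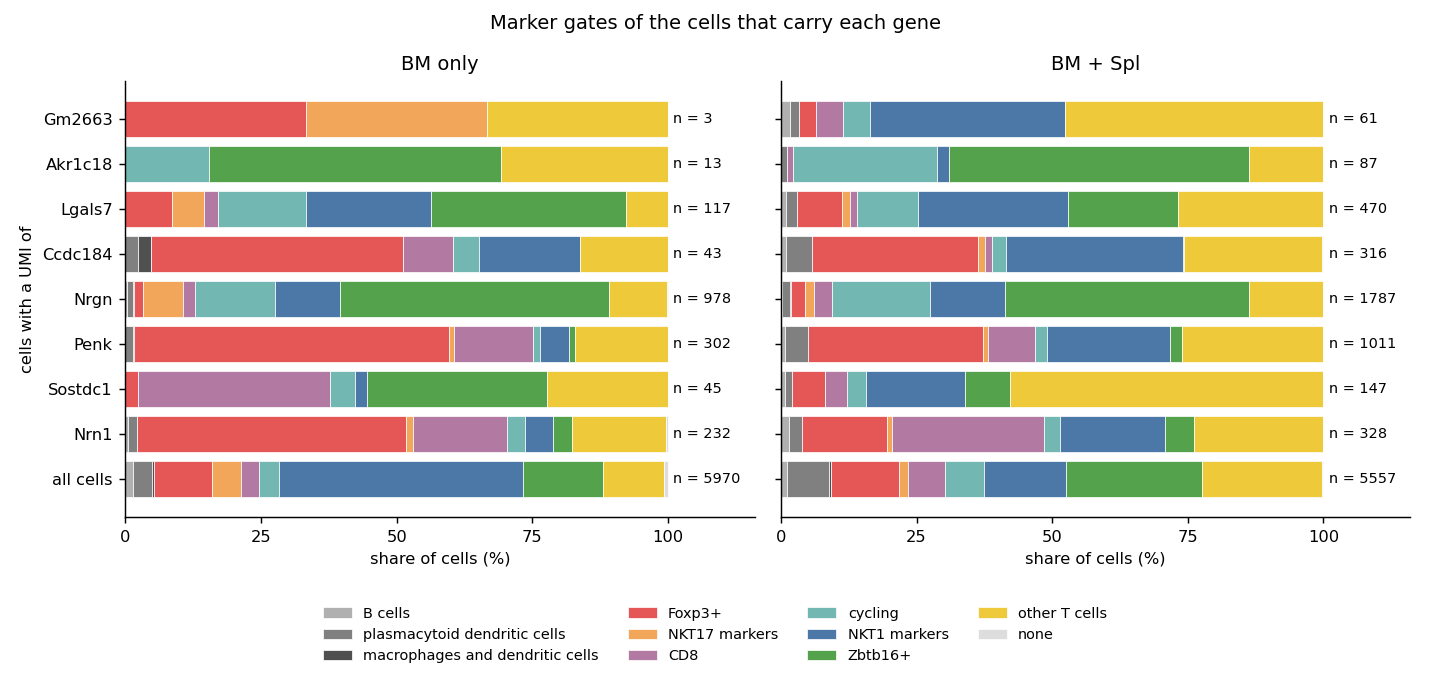
Share of the carriers of each gene (horizontal axis, percent) in each marker gate, in BM only (left) and BM + Spl (right), with all cells of the library in the lowest row and the number of cells beside each bar. Green (Zbtb16+) and turquoise (cycling) fill most of the Akr1c18 and Nrgn rows, and red, blue and yellow (Foxp3+, NKT1 markers and other T cells) fill most of the Penk and Ccdc184 rows of BM + Spl.

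Akr1c18 encodes a steroid dehydrogenase that inactivates progesterone. It was carried by 62 of 4434 C57BL/6 cells, 13 of 5970 BM only cells and 87 of 5557 BM + Spl cells, or 1.40%, 0.218% and 1.57%. In C57BL/6, 58 of its 62 carriers lay in the Zbtb16+ and cycling gates, beside 2345 of all 4434 cells. Expression was uneven, since the 5 richest cells held 38.2% of the Akr1c18 UMIs in C57BL/6, 84.5% in BM only and 41.0% in BM + Spl. Without those 5 cells of each library the log2 ratio over all cells was 5.53 in place of 3.60. This took out 5 of 13 carriers in BM only but 5 of 87 in BM + Spl. Few BM only UMIs were left, so 5.53 is not read as a larger rise. Within cycling cells its level was 4.80 CPM in BM only and 74.8 CPM in BM + Spl, a log2 ratio of 3.96 (3.22 to 4.81). Within Zbtb16+ cells it was 7.08 and 40.1 CPM, a log2 ratio of 2.50 (2.09 to 2.95). The BM only levels rest on 15 UMIs in cycling cells and 51 in Zbtb16+ cells, from 9 carriers in both gates together. Both intervals take UMIs of the same cell as independent. Of the Akr1c family, Akr1c12 was at 1.21 and 2.55 CPM and Akr1c13 at 11.3 and 10.7 CPM over all cells. The other 6 members of the family list did not reach 20 UMIs.

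Nrgn encodes neurogranin, a small protein best known in neurons that binds calmodulin when calcium is low. It had UMIs in 1849 C57BL/6 cells (41.7%), 978 BM only cells (16.4%) and 1787 BM + Spl cells (32.2%). Within Zbtb16+ cells its level was 934 CPM in BM only and 1013 CPM in BM + Spl, a log2 ratio of 0.12 (0.07 to 0.16), and within cycling cells it was 1421 and 1324 CPM, a log2 ratio of -0.10 (-0.15 to -0.05). Both gates that held most Nrgn thus had similar levels in the libraries. Zbtb16+ cells numbered 877 of 5970 in BM only and 1389 of 5557 in BM + Spl, and cycling cells 220 and 400. The NKT1 marker gate stood at 62.3 CPM in BM only and 322 CPM in BM + Spl, a log2 ratio of 2.37 (2.25 to 2.50). The NKT17 marker gate stood at 177 and 461 CPM, a log2 ratio of 1.38 (1.16 to 1.60), and the log2 ratio was 1.22 in the B cell gate, 0.90 in the CD8 gate and 0.41 in the Foxp3+ gate, each with its interval above 0. The B cell gate had only 22 and 50 Nrgn UMIs. In the B cell, plasmacytoid dendritic and macrophage gates together, 215 of 227 and 285 of 295 Nrgn UMIs lay in cells with a Cd3 UMI. Other T cells were at 527 and 441 CPM, a log2 ratio of -0.26 (-0.35 to -0.16). Weighting the gates of both libraries by the UMI shares they had in BM only gave a log2 ratio of 0.35 over all cells in place of 0.62. None of the 7 measured genes of the calmodulin list passed 1.5-fold in either direction, beside 1168 upward and 1538 downward of all 14295 genes, and their median log2 ratio was -0.04. The number of genes is too small to set the list apart from all genes, here and in the lists that follow.

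Penk encodes proenkephalin, the precursor of opioid peptides, and is known from activated and regulatory T cells. It had 27340 UMIs in 1011 BM + Spl cells (18.2%) against 5564 UMIs in 302 BM only cells (5.06%). In BM only, 175 of the 302 carriers were Foxp3+, and the Foxp3+ level was 999 CPM there and 1711 CPM in BM + Spl, a log2 ratio of 0.78 (0.72 to 0.83). The CD8 gate stood at 623 and 666 CPM, with an interval of the log2 ratio that included 0 (-0.04 to 0.24). In the NKT1 marker gate 16 of 2686 BM only cells carried Penk (0.596%) and 229 of 842 BM + Spl cells did (27.2%). The level there was 7.93 and 1133 CPM, a log2 ratio of 7.16 (6.87 to 7.46). Of the opioid list, Pcsk1, which cleaves the precursor, was at 19.7 and 24.9 CPM, and the receptor gene Oprm1 was at 19.2 and 18.6 CPM. None of the 4 measured genes of that list passed 1.5-fold upward, beside 8.17% of all genes, and Cpe, at 1.95 and 1.09 CPM, passed it downward.

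Sostdc1 encodes a secreted antagonist of BMP and WNT ligands. It was carried by 12 C57BL/6 cells, 45 BM only cells (0.754%) and 147 BM + Spl cells (2.65%). Its carriers changed gates between the libraries. In BM only, 16 of 45 were in the CD8 gate and 15 in the Zbtb16+ gate, whereas in BM + Spl 85 of 147 were in the other T cell gate and 27 in the NKT1 marker gate. Its level was 89.6 CPM in BM only and 31.5 CPM in BM + Spl in the CD8 gate, a log2 ratio of -1.51 (-1.99 to -1.03), and in the Zbtb16+ gate 4.58 and 2.34 CPM, a log2 ratio of -0.97 (-1.73 to -0.22). In other T cells it was 15.1 and 119 CPM, a log2 ratio of 2.98 (2.51 to 3.47). In the NKT1 marker gate 2 UMIs in 1 BM only cell stood against 274 UMIs in 27 BM + Spl cells, a log2 ratio of 8.40 (6.54 to 11.46). Of 10 measured genes of the BMP and WNT list, 1 passed 1.5-fold upward, beside 8.17% of all genes, and 2 passed it downward, beside 1538 of 14295. Bmp7, at 21.6 and 11.3 CPM, had its whole interval below 0, whereas the intervals of Lrp4, which passed upward with 6 and 14 UMIs, and of Id1, which passed downward with 31 and 24 UMIs, included 0.

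Nrn1 encodes neuritin, a small protein anchored to the cell surface and first described in neurons. It was carried by 42 C57BL/6 cells, 232 BM only cells (3.89%) and 328 BM + Spl cells (5.90%). In BM only 115 of the 232 carriers were Foxp3+, and in BM + Spl 51 of 328 were. The Foxp3+ level was 76.7 CPM in BM only and 24.4 CPM in BM + Spl, a log2 ratio of -1.65 (-1.96 to -1.36). The CD8 gate was the richest in both libraries, at 204 and 260 CPM. The NKT1 marker gate stood at 2.40 and 47.7 CPM, a log2 ratio of 4.31 (3.76 to 4.91). Foxp3+ cells and NKT1 marker cells thus lay on opposite sides of 0 for Nrn1. In other T cells it was at 40.7 and 37.0 CPM, with an interval of the log2 ratio that included 0 (-0.48 to 0.21). In C57BL/6, 40 of the 42 Nrn1 carriers had a Zbtb16 UMI, against 29 of 328 in BM + Spl. Over all cells, 3428 of 4434 in C57BL/6 and 1983 of 5557 in BM + Spl had one, at median depths of 12087 and 6495 UMIs.

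Lgals7 encodes galectin-7, a lectin that binds galactose-containing sugars. It was found in 327 C57BL/6 cells (7.37%), 117 BM only cells (1.96%) and 470 BM + Spl cells (8.46%). In C57BL/6 and BM only 80.1% and 89.7% of its carriers had a single UMI, and no cell had 10. In BM + Spl 58.7% had a single UMI, 31 cells had at least 10 and the richest had 125. Within Zbtb16+ cells its level was 6.52 and 8.74 CPM, with an interval of the log2 ratio that included 0 (-0.08 to 0.94). In the NKT1 marker gate it was 2.81 and 100.4 CPM, a log2 ratio of 5.16 (4.67 to 5.70), and in other T cells 3.77 and 99.4 CPM, a log2 ratio of 4.72 (3.83 to 5.79). Foxp3+ cells stood at 2.86 and 47.5 CPM. Of the 6 measured genes of the galectin list, 1 passed 1.5-fold upward, beside 8.17% of all genes. This was Lgals4, at 1.52 and 2.30 CPM, a log2 ratio of 0.59 (0.10 to 1.10) that lay just past the threshold, and Lgals1 was at 1307 and 1501 CPM.

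Ccdc184, a gene named for its coiled-coil domain, was carried by 43 BM only cells (0.720%) and 316 BM + Spl cells (5.69%). Foxp3+ cells held 20 of the 43 and 97 of the 316, at 6.50 and 34.4 CPM, a log2 ratio of 2.40 (1.80 to 3.07). The NKT1 marker gate was at 1.68 and 41.6 CPM, a log2 ratio of 4.63 (3.98 to 5.35). Zbtb16+ cells had nearly none, with 0 carriers of 877 in BM only and 1 of 1389 in BM + Spl. The CD8 gate went the other way, with 14 UMIs in 4 of 203 BM only cells and 7 UMIs in 4 of 380 BM + Spl cells, a log2 ratio of -2.24 (-3.79 to -0.83). Of the 14 UMIs, 12 came from 2 cells. The interval takes UMIs of the same cell as independent, so this direction rests on few cells.

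Gm2663 encodes a predicted serine protease of the trypsinogen family. It was the rarest of the 8, in 3 BM only cells (0.0503%) and 61 BM + Spl cells (1.10%), of which 27 had at least 10 UMIs. In BM + Spl, 22 of its carriers were in the NKT1 marker gate and 29 among other T cells. The NKT1 marker gate had 256 UMIs in BM + Spl and none in 2686 BM only cells, and other T cells stood at 3.39 and 53.6 CPM. In Foxp3+ cells 104 UMIs came from 2 carriers. A neighbouring gene of the same family, 1810009J06Rik, 27.4 kb away on the plus strand, had 0, 10 and 431 UMIs in C57BL/6, BM only and BM + Spl. Of its 44 BM + Spl carriers, 37 also had Gm2663. Transcripts of both genes shared 649 of 803 60-base words of Gm2663 (80.8%), so their counts are uncertain where reads could not be told apart, and the other 7 genes shared no such word with any other gene. 2210010C04Rik, a trypsinogen-family gene between Gm2663 and Trbv2, had 2 UMIs in BM + Spl, neither in a Gm2663 carrier.

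**Figure D3:**
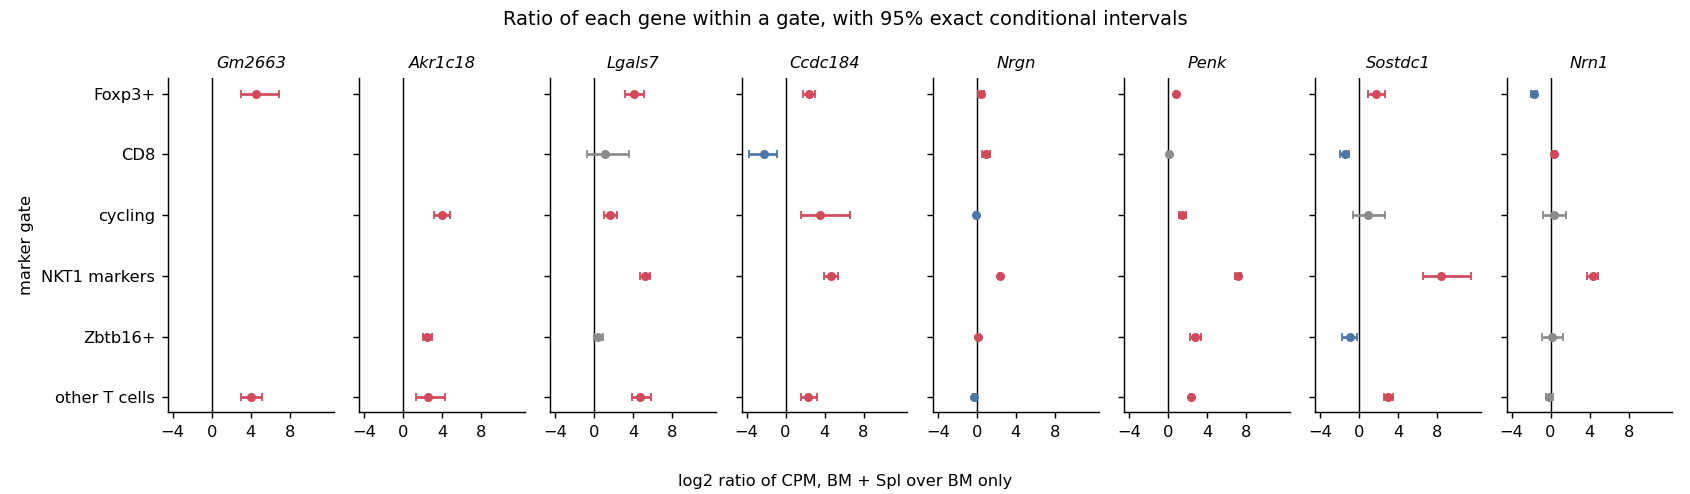
Log2 ratio of CPM, BM + Spl over BM only (horizontal axis), of each gene within 6 marker gates (rows), with 95% exact conditional intervals; red points lie above 0 and blue points below 0 with their whole interval, grey points have an interval that includes 0, and a gate is left empty where either library had no UMI. In the NKT1 marker row every point shown lies above 0, from 2.37 for Nrgn to 8.40 for Sostdc1, and points below 0 include Nrn1 in the Foxp3+ gate and Ccdc184 and Sostdc1 in the CD8 gate.

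V beta segments were then read in the carriers. Of all BM + Spl cells without Penk that had an assigned segment, 67.1% had an iNKT segment, against 284 of 828 Penk carriers, or 34.3% (31.1 to 37.6). In BM only the values were 81.8% and 32.9% (26.9 to 39.4). Gm2663 carriers had an iNKT segment in 14 of 55 BM + Spl cells, 25.5% (14.7 to 39.0), and Sostdc1 carriers in 39 of 118, 33.1% (24.7 to 42.3). The corresponding values were 37.6% (31.8 to 43.8) for Ccdc184 and 44.98% (38.9 to 51.1) for Nrn1, both below the 62.2% and 61.8% of cells without them. Nrgn and Akr1c18 lay on the other side. Nrgn carriers had an iNKT segment in 1247 of 1487 cells, 83.9% (81.9 to 85.7), against 48.3% of other cells, and Akr1c18 carriers in 65 of 69, 94.2% (85.8 to 98.4), against 60.2%. Lgals7 carriers, at 59.8% (54.8 to 64.7), did not differ from other cells, at 60.8%, by more than the interval. These contrasts span all gates and do not hold the gate fixed. Of all BM + Spl Zbtb16+ cells with an assigned segment, 94.7% had an iNKT segment, close to Akr1c18 carriers. Among BM + Spl Foxp3+ cells, Penk was carried by 73 of 154 with an iNKT segment and 171 of 380 with another. Their intervals overlapped (39.3% to 55.6% and 39.9% to 50.2%). In the other T cell gate the counts were 81 of 463 and 154 of 554, with intervals apart (14.1% to 21.3% and 24.1% to 31.7%).

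**Figure D4:**
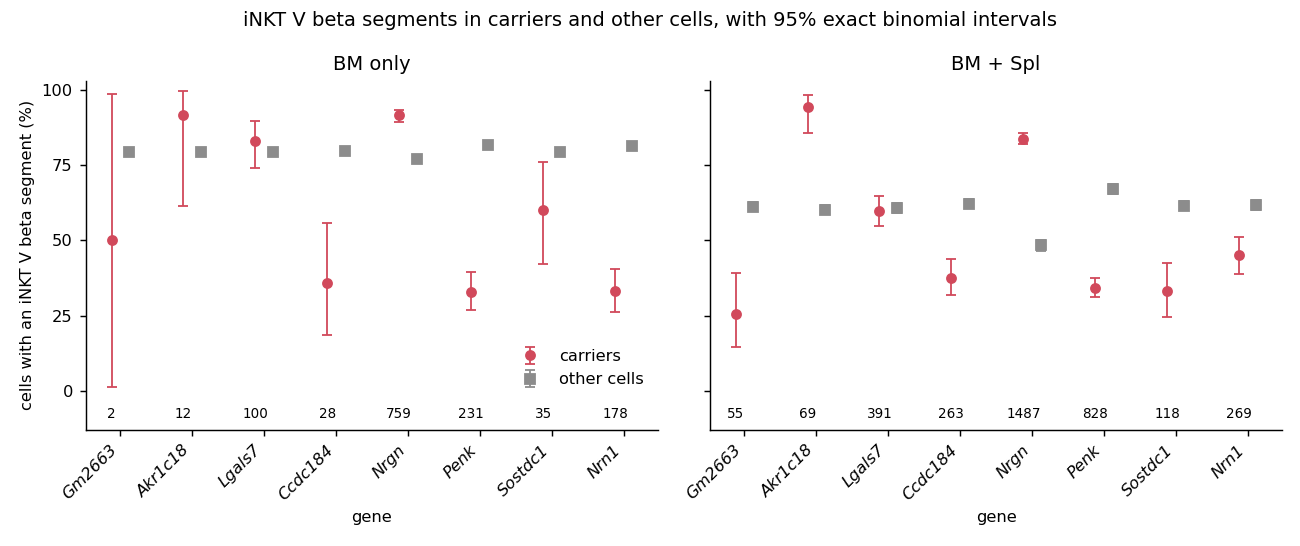
Share of cells with an iNKT V beta segment (vertical axis, percent) among carriers of each gene (red circles) and other cells (grey squares) of BM only (left) and BM + Spl (right), with 95% exact binomial intervals and the number of carriers with an assigned segment along the bottom. Carriers of Akr1c18 and Nrgn lie above the other cells of BM + Spl, those of Lgals7 lie level with them, and those of the other 5 genes lie below.

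No single segment accounted for the carriers. The 828 Penk carriers of BM + Spl used 21 segments, the most frequent being Trbv12-2/Trbv13-2 with 109 cells (13.2%) and Trbv5 with 102 (12.3%). The 55 Gm2663 carriers used 13 segments, led by Trbv5 with 10 cells and Trbv3 with 9. Akr1c18 carriers were more restricted than these, with Trbv12-2/Trbv13-2 in 29 of 69 cells (42.0%) and Trbv29 in 23 (33.3%). Both segments were also common elsewhere. Of all 2586 BM + Spl cells with an iNKT segment, 1076 had Trbv12-2/Trbv13-2 and 489 had Trbv29, and Nrgn carriers had them in 37.1% and 21.2%.

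Cells with an iNKT segment also differed between the libraries when they were read alone. In the NKT1 marker gate, 8 of 2070 BM only cells with an iNKT segment carried Penk (0.386%, 0.167 to 0.760) and 74 of 329 BM + Spl cells did (22.5%, 18.1 to 27.4). Cells of that gate with another segment carried Penk in 6 of 165 (3.64%) and 129 of 370 (34.9%). Lgals7 was found in 17 of 2070 and 42 of 329 cells with an iNKT segment, Ccdc184 in 1 and 30, Nrgn in 58 and 115, Nrn1 in 7 and 25, and Gm2663 in 0 and 6. Sostdc1 was found in 0 of 2070 and 1 of 329 cells with an iNKT segment and in 20 of 370 BM + Spl cells with another, and Akr1c18 in 0 of 2070 and 0 of 329. Over all gates, the log2 ratio of Akr1c18 was 3.88 (3.48 to 4.31) in cells with an iNKT segment and -0.27 (-1.28 to 0.80) in cells with another. For Nrn1 these values were 1.58 (1.32 to 1.86) and -0.24 (-0.44 to -0.04), and for Sostdc1 they were 1.21 (0.82 to 1.61) and 2.85 (2.43 to 3.31). The Akr1c18 ratio of -0.27 came from 14 UMIs in 1 of 951 BM only cells and 24 UMIs in 4 of 1673 BM + Spl cells. With so few cells it shows neither a rise nor its absence. An iNKT segment does not mark a cell as iNKT by itself, since conventional T cells also use these segments, and Traj18 UMIs, from the alpha chain joining segment of iNKT cells, were found in 2.91% of BM only cells and 2.90% of BM + Spl cells. Among BM + Spl carriers they were found in 5 of 87 for Akr1c18, 102 of 1787 for Nrgn and 18 of 470 for Lgals7. The counts were 3 of 1011 for Penk, 1 of 328 for Nrn1, 3 of 316 for Ccdc184, 2 of 147 for Sostdc1 and 0 of 61 for Gm2663.

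Among 5557 BM + Spl cells, 914 (16.4%) carried at least 2 of the 8 genes and 91 carried at least 4, against 231 (3.87%) and 5 of 5970 BM only cells. The genes were chosen by their rise, which by itself raises these counts in BM + Spl. Counts expected from the carrier share of each gene are not given. No BM + Spl cell carried more than 6. Of the 91 cells, 37 were in the other T cell gate and 30 in the NKT1 marker gate, 5 had a Zbtb16 UMI, and 28 of 74 with an assigned segment had an iNKT segment, over 15 segments. Their median depth was 6258 UMIs. Penk was detected in 87 of them, Nrgn in 77, Lgals7 in 70, Ccdc184 in 46, Nrn1 in 37, Sostdc1 in 35, Gm2663 in 27 and Akr1c18 in 4.

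Penk, with 1011 carriers the most common gene of its group, was most often found with the others. It was present in 44 of 61 Gm2663 carriers (72.1%, 59.2 to 82.9) against 17.6% of cells without Gm2663. It was in 93 of 147 Sostdc1 carriers (63.3%) against 17.0% of cells without Sostdc1. For Ccdc184 the shares were 190 of 316 (60.1%) against 15.7%, and for Nrn1 189 of 328 (57.6%) against 15.7%. Gm2663 carriers also held Nrn1 in 30 cells (49.2%), against 5.42% of cells without Gm2663, and Sostdc1 in 22 (36.1%), against 2.27%. They held Ccdc184 in 3 (4.92%), which was no more than the 5.70% of cells without Gm2663. Akr1c18 carriers had Nrgn in 70 of 87 cells (80.5%, 70.6 to 88.2) against 31.4% of other cells, and none had Sostdc1. Penk was less frequent in Akr1c18 carriers (9.20%, 4.05 to 17.3) than in other cells (18.3%), and in Nrgn carriers (14.1%, 12.52 to 15.8) than in other cells (20.1%). Of the 28 pairs, 15 were found together in a share above, and 2 in a share below, that of cells without the first gene, with intervals apart. For Akr1c18 and Penk the intervals nearly met, at 17.317% and 17.319%. Pairs of other genes were not counted, so these numbers do not set the 8 genes apart. All 15 and 2 are counts over cells of 1 library. Carriers of Nrgn and Akr1c18 were deeper than other cells, with medians of 9781 and 12233 UMIs against 5150 and 6392, and carriers of Penk were shallower, with 5347 against 6751.

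**Figure D5:**
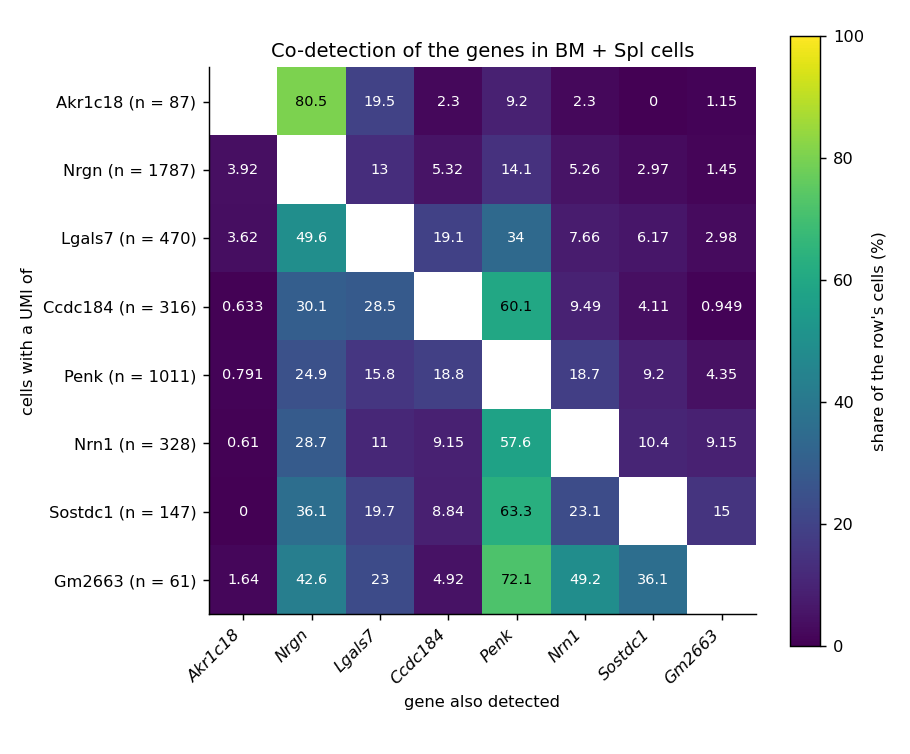
Share (percent, colour and number) of the BM + Spl cells with a UMI of the gene in each row, n beside its name, that also had a UMI of the gene in each column. Penk is found in 57.6% to 72.1% of the carriers of Nrn1, Ccdc184, Sostdc1 and Gm2663, and Nrgn in 80.5% of the carriers of Akr1c18.

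The genes whose detection was most like that of each of the 8 were ranked by the Jaccard index, the cells with both over the cells with either, across 5557 BM + Spl cells and 11452 genes found in at least 50 of them. For Penk these were Tnfrsf4, Ctla4 and Tigit, encoding OX40 and inhibitory receptors, with indices of 0.407, 0.392 and 0.382. For Nrgn they were Chn2, Zbtb16 and Pdcd1, with 0.488, 0.476 and 0.425. Gm2663 and Nrn1 shared Bdh2 and 1700019D03Rik among their first 3, with Bdh2 in 30 of 61 Gm2663 carriers (49.2%) against 2.37% of other cells. Sostdc1 stood nearest to Dgki, found in 76 of its 147 carriers (51.7%), and Ccdc184 to the chemokine gene Ccl1, in 111 of 316 (35.1%). Lgals7 stood nearest to Ifitm2, Igfbp7 and Ifitm3, and Akr1c18 to Kirrel3, its relative Akr1c13 and Cdh3, with indices of 0.0734 to 0.0769. The index rises with the number of carriers, so values of rare and common genes are not comparable.

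In BM + Spl cells thinned to 2700 UMIs, 521 had at least 2 of the 8 genes and 2784 had none. Among 8661 other genes with at least 100 UMIs, receptor segments left out, the largest ratios of CPM belonged to 1810009J06Rik, Bdh2, Spp1, 1700019D03Rik, Dgki, Cd70, Serpine2, Igfbp7, Agr3 and Klri2. Spp1, encoding osteopontin, was at 127 and 3.19 CPM, and Cd70, a ligand of the TNF family, was at 47.6 and 1.86 CPM. Igfbp7 was at 340 and 16.9 CPM. Of 25 genes listed for T cell hyporesponsiveness and strong receptor signal, 7 passed 1.5-fold upward from BM only to BM + Spl over all cells and 2 downward, with a median log2 ratio of 0.40 beside a median of -0.00269 and 1168 upward and 1538 downward among all 14295 genes. Lag3 was at 33.7 and 117 CPM and Tigit at 56.4 and 111 CPM. Passing downward were Cd160, at 67.4 and 35.9 CPM, and Egr1, at 96.3 and 62.3 CPM.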

How the data were processed

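The authors sorted CD1d tetramer-binding thymocytes and sequenced 1 droplet library per group. They deposited UMI counts per gene and cell, made by Cell Ranger on mm10, with no normalization. The file headers name version 7.0.0 for BM only and BM + Spl and version 3.0.2 for C57BL/6, and the methods name another. They also name kits for both transcript ends without assigning them to libraries. The submitters' processing notes name Seurat 4.0.2, not used here. The libraries were compared over 30406 shared gene identifiers.

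The 8 genes, the gene lists and the rules were chosen with earlier results of these data known. Named were the 8 genes, genes of the lists, the 3 genes nearest to each by Jaccard index and the 10 with the largest ratio between cells with at least 2 of the 8 and cells with none. The filter on cells asked for more than 200 but fewer than 6000 detected genes and mitochondrial transcripts below 10%. A V beta segment was assigned at 80% of the cell's V beta UMIs, with Trbv12-2 and Trbv13-2 merged. Intervals were Clopper-Pearson for shares, exact Poisson for CPM and exact conditional binomial for ratios, and a count of 0 was bounded by 3 counts. Doublets were not removed. Scrublet called 2 BM only and 3 BM + Spl cells, which does not show that doublets were rare. In BM + Spl, 130 cells of the B cell, plasmacytoid dendritic and macrophage gates also had a Cd3 UMI. Alternatives left out the 6% of cells with the highest scores, thinned cells to 2700 UMIs, dropped the cell filter, rescaled the libraries or held the gate mix. Others left out the 5 richest cells per gene, asked for 2 UMIs per carrier, used overlapping gates or changed the V beta call. Thinning dropped cells with fewer than 2700 UMIs, so thinned values cover fewer cells than passed the filter. Scripts ran in Python 3.11.15. Sparse sums used scipy 1.17.1, tables pandas 2.3.3, random thinning numpy 2.4.6, and doublet scores scanpy 1.11.5, and the functions were tested on simulated data. No column of other samples was present (0).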

Additional observations from a re-analysis of the deposited data

Results flagged for a closer look

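For 4 of the 8 genes the log2 ratio of BM + Spl to BM only pointed in opposite directions in different marker gates, with both intervals apart from 0. The differences between gates were not tested, and the share of all genes with such opposite ratios is not given. The count thus does not set the 8 genes apart. Ccdc184 had 4.63 in the NKT1 marker gate and -2.24 in the CD8 gate, where it had 14 and 7 UMIs. Of the 14, 12 came from 2 BM only cells, so the interval of this ratio, which takes UMIs as independent, rests on few cells. Sostdc1 had 8.40 in the NKT1 marker gate, against 2 UMIs in BM only, and -1.51 in the CD8 gate. Nrn1 had 4.31 in the NKT1 marker gate and -1.65 in the Foxp3+ gate. Nrgn had 2.37 in the NKT1 marker gate and -1.06 in the plasmacytoid dendritic cell gate, where 204 UMIs came from 11 BM only cells and 241 from 26 BM + Spl cells. In the B cell, plasmacytoid dendritic and macrophage gates together, 215 of 227 Nrgn UMIs in BM only lay in cells that also had a Cd3 UMI. In BM + Spl 285 of 295 did, so the ratio of -1.06 rests mostly on cells that also held a T cell transcript. The NKT1 marker gate held 92.6% cells with an iNKT segment in BM only and 47.1% in BM + Spl, and the part of this change in the ratios was not tested beyond the values given by segment.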

How the results depend on the processing

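No log2 ratio over all passing cells changed direction under an alternative that gave a value, and the ratios within gates and segment classes were not recomputed. Thinning to 2700 UMIs, which dropped shallower cells, moved the log2 ratio past its counting interval for Akr1c18 (4.115), Lgals7 (3.96), Nrgn (0.82), Sostdc1 (3.25) and Nrn1 (0.87). Giving both libraries the gate mix of BM only moved Akr1c18 (2.98), Lgals7 (3.84), Ccdc184 (3.43), Nrgn (0.35), Penk (2.31) and Sostdc1 (2.64). Without the 5 cells of each library richest in the gene, Akr1c18 (5.53), Penk (2.125) and Sostdc1 (3.002) moved, and Gm2663 gave no value because no BM only UMI was left. Dropping the cell filter, median-of-ratios scaling (shift 0.0165) and leaving out high Scrublet scores moved none. Not taking Trbv1 as an iNKT segment lowered the iNKT share of BM + Spl carriers for Akr1c18 (85.5%), Lgals7 (47.8%), Ccdc184 (27.8%), Nrgn (73.1%), Penk (25.9%) and Nrn1 (36.4%), and thinning lowered it for Lgals7 (46.5%), whereas a call at 50% of V beta UMIs, or only in cells with 3 such UMIs, moved none. After thinning, with gates assigned anew on the thinned counts, 1 gene in place of 2 had over 50% of carriers in the Zbtb16+ and cycling gates, with Nrgn at 45.8%. With overlapping gates 2 genes still did, and the share of carriers in these gates rose for Lgals7 (38.3%), Ccdc184 (8.54%), Nrgn (71.1%), Penk (11.9%) and Nrn1 (14.3%). The pairs found together less often numbered 1 after thinning, 4 without high Scrublet scores and 0 within the leading gate of the first gene, in place of 2. No paired analysis was possible because each group is 1 library. Depth limits Gm2663 and Akr1c18 in BM only, which rest on 13 and 71 UMIs.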
